A study of Homo sapiens with 6 samples.

Results

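Keratins are the intermediate filament proteins of epithelial cells. The 55 keratin genes described here are all rows of the deposited table of type mRNA whose symbol is KRT followed by a number and at most 1 letter, out of 41768 genes, of which 20452 are of type mRNA. Of them, 29 encode acidic type I keratins and 26 encode basic type II keratins. Keratin-associated protein genes and keratin pseudogenes are not members. The libraries come from 2 pancreatic ductal adenocarcinoma (PDAC) cell lines with or without siALDOA, read here as small interfering RNA against ALDOA, the gene of the glycolytic enzyme aldolase A. The groups are PANC-1 with siALDOA (2 libraries), PANC-1 labelled NC (1 library), the line named 90 with siALDOA (2 libraries) and the 90 line labelled NC (1 library). The labels of the 90 line spell the treatment siAldoa. PANC-1 is an established human PDAC line. The sources used here give no meaning for the names 90 and NC, no genotype or treatment time, and nothing on whether the numbers of the siALDOA libraries mark separate siRNAs or repeats. Separate cultures are not mentioned either. The p-values therefore cover only library-to-library spread, part or all of which may be technical.

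A keratin filament is built from pairs of a type I and a type II chain, and a cell that makes one chain usually makes a partner for it. KRT8 with KRT18 is the pair of simple, single-layered epithelia such as pancreatic ducts, where KRT19 and KRT7 are also made. KRT5 with KRT14 marks the basal layer of stratified epithelia, KRT6A and KRT6B with KRT16 and KRT17 are made by stressed or wounded stratified epithelium, and KRT1 with KRT10 belongs to the upper layers of the epidermis. In PDAC, KRT5, KRT6A and KRT17 are used as markers of the basal-like subtype.

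Libraries held 18.7 to 21.8 M fragments in PANC-1 and 17.8 to 19.5 M in the 90 line (M for mega), as recovered from the values. At these depths 3 fragments on a gene of 2 kb correspond to 0.0687 to 0.0801 FPKM (fragments per kilobase and per M fragments) in PANC-1 and 0.0769 to 0.0844 FPKM in the 90 line, so values near or under that level rest on a few fragments. ALDOA, the targeted gene, stood at 501 and 462 FPKM in PANC-1 siALDOA 1 and 2 against 906 in PANC-1 NC. In the 90 line it stood at 262 and 318 FPKM in siALDOA 1 and 2 against 726 in NC. The 2 siALDOA libraries of a line differed widely from each other in genes such as TOP2A, a topoisomerase of dividing cells. TOP2A stood at 3.25 and 102 FPKM in PANC-1 siALDOA 1 and 2 against 35.1 in NC. It was at 86.2 and 11.3 FPKM in 90 siALDOA 1 and 2 against 3.98 in NC. The epithelial markers EPCAM, CDH1, KRT8, KRT18 and KRT19 were all detected, with EPCAM at 7.51 to 17.5 FPKM in PANC-1 and 88.6 to 154 FPKM in the 90 line, and CDH1 at 1.18 to 2.05 FPKM in PANC-1 and 38.0 to 44.5 FPKM in the 90 line. Of the 6 fibroblast markers COL1A1 alone reached 1 FPKM, of the 5 leukocyte markers CD68 alone, of the 4 endothelial markers CDH5 alone and of the 3 endocrine markers SST alone. None of the 4 acinar markers did, and AMY2A and INS were at 0 in every library. Summed levels were 10.5 to 14.4 FPKM in PANC-1 and 1.31 to 1.77 FPKM in the 90 line for the fibroblast list, 124 to 163 FPKM in PANC-1 and 31.4 to 51.6 FPKM in the 90 line for the leukocyte list, and 0.0270 to 0.0508 FPKM in PANC-1 and 3.66 to 3.83 FPKM in the 90 line for the endothelial list. Their part in the line differences was not tested.

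Of the 55 keratins, 16 reached 1 FPKM in at least 1 library, 31 were above 0 somewhere but under 1 FPKM in every library, and 8 were at 0 in every library. PANC-1 NC had 8 keratins at 1 FPKM or more, PANC-1 siALDOA 1 had 12 and siALDOA 2 had 8, against 13 to 15 per library in the 90 line. At 100 FPKM or more stood 3 keratins in each PANC-1 library and 7 in each 90 library. The 3 were KRT8, KRT18 and KRT19, and the 90 line added KRT7, KRT5, KRT6A and KRT17.

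**Figure D1:**
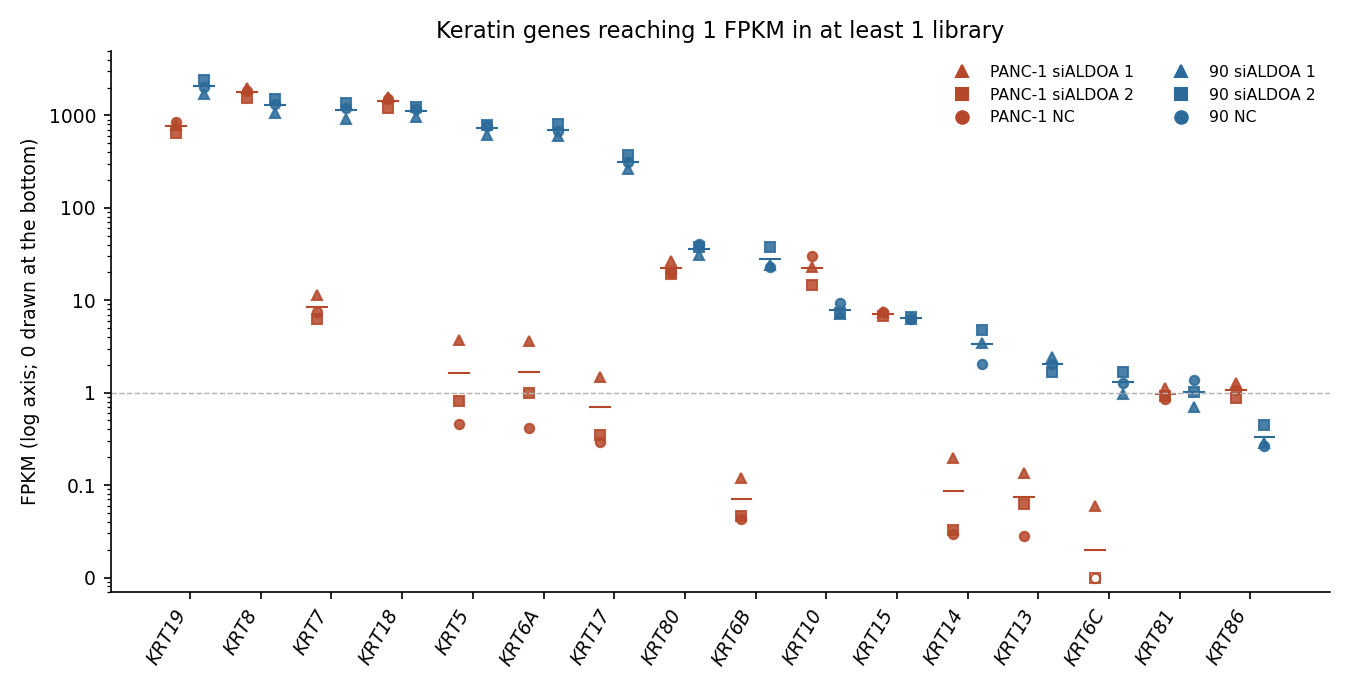
FPKM (log axis, with 0 drawn at the bottom) of the 16 keratin genes that reached 1 FPKM in at least 1 library, in order of their mean in the 90 line. Points are libraries and short lines the mean of 3 libraries. KRT19, KRT8 and KRT18 are at 652 FPKM or more in both lines, while KRT5, KRT6A and KRT17 are at 3.68 FPKM or less in PANC-1 and at 260 FPKM or more in the 90 line.

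The lines were compared over all 6 libraries in 1 limma fit with terms for line and for siALDOA, on log2(FPKM + 1), for genes whose mean over the 6 libraries reached 1 FPKM. This filter was passed by 13 keratins among 12592 genes. Calls were made where the Benjamini-Hochberg adjusted p over all 12592 was under 0.05. Of the 13 keratins, 9 were called lower in PANC-1, beside 18.4% of all tested genes, and 1 was called higher, beside 20.4%. The median log2 difference of the 13, PANC-1 minus 90, was -1.50, and that of all tested genes was 0.13. After median-ratio scaling, which moved the median of all genes to 0.03, calls over all genes were 1989 lower and 1527 higher, in place of 2315 and 2567, and those of keratins 8 lower and 1 higher. KRT17, KRT6B, KRT14 and KRT13 had a mean under 1 FPKM in PANC-1 and passed the filter only through the 90 line, so the count and the median of the 13 describe the genes that passed and are no measure of all 55. In bulk RNA, fewer cells that make a keratin and less of its RNA per cell cannot be told apart.

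Summed over all members, keratin RNA amounted to 4421 and 3421 FPKM in PANC-1 siALDOA 1 and 2 and 4271 FPKM in PANC-1 NC, against 6208 and 8577 FPKM in 90 siALDOA 1 and 2 and 7562 FPKM in 90 NC. The means were 4038 ± 539 FPKM in PANC-1 and 7449 ± 1188 FPKM in the 90 line (SD, n = 3 each), and no PANC-1 library reached the lowest library of the 90 line. This was 0.720% to 0.849% of all FPKM in PANC-1 libraries and 1.28% to 1.61% in 90 libraries. The balance of the chains also differed: type II over type I was 0.779 to 0.840 in PANC-1 and 1.10 to 1.14 in the 90 line. KRT8, KRT18 and KRT19 together held 98.1% to 98.5% of keratin FPKM in PANC-1 and 59.8% to 60.4% in the 90 line. KRT5, KRT6A, KRT7 and KRT17 together held 0.202% to 0.459% in PANC-1 and 38.4% to 39.0% in the 90 line. The second share was the highest in siALDOA 1 among PANC-1 libraries, at 0.459%, against 0.245% in siALDOA 2 and 0.202% in NC. The sums are descriptions, with no test.

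**Figure D2:**
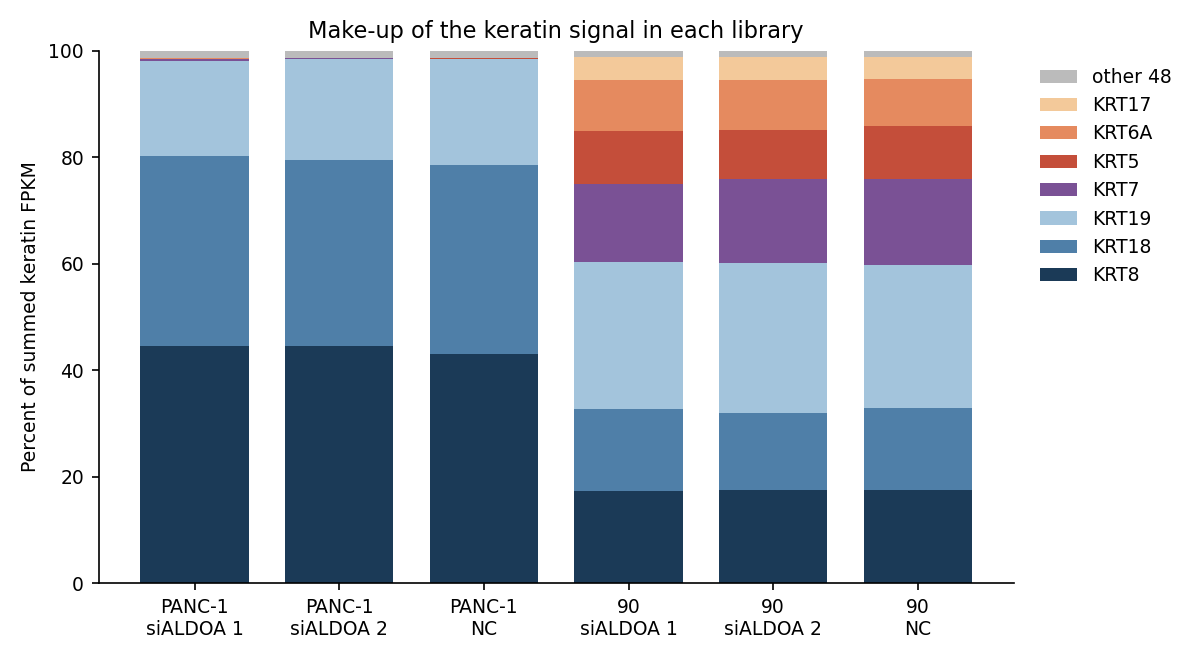
Percent of the summed keratin FPKM (vertical axis) taken by KRT8, KRT18, KRT19, KRT7, KRT5, KRT6A, KRT17 and the remaining keratins in each library (1 bar per library, 3 of PANC-1 on the left and 3 of the 90 line on the right). KRT8 holds 43.0% to 44.5% of the signal in PANC-1 and 17.3% to 17.6% in the 90 line.

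Among the simple epithelial keratins, KRT8 and KRT18 were abundant in both lines. KRT8, the type II chain of simple epithelia, had 1969 and 1523 FPKM in PANC-1 siALDOA 1 and 2 and 1839 FPKM in PANC-1 NC, against 1074 and 1506 FPKM in 90 siALDOA 1 and 2 and 1319 FPKM in 90 NC. The lowest PANC-1 library lay just above the highest 90 library. The log2 difference of 0.46 (SE 0.188) did not pass in limma (adjusted p = 0.122). KRT18, its type I partner, had 1578 and 1194 FPKM in PANC-1 siALDOA 1 and 2 and 1517 FPKM in PANC-1 NC, against 956 and 1228 FPKM in 90 siALDOA 1 and 2 and 1164 FPKM in 90 NC. Its groups overlapped, and the difference of 0.35 (SE 0.172) did not pass either (limma adjusted p = 0.176). Among other filters, scalings and pseudocounts, KRT8 was called higher after quantile normalization (0.68, adjusted p = 1.29e-04) and as TPM (0.47, adjusted p = 0.0420), and KRT18 after quantile normalization (0.56, adjusted p = 4.10e-04). The ratio of KRT8 to KRT18, both per length, was 1.21 to 1.28 in PANC-1 and 1.12 to 1.23 in the 90 line, so KRT8 was above KRT18 in every library.

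KRT19, the type I keratin of ducts that has no tail domain, was lower in PANC-1. It had 793 and 652 FPKM in PANC-1 siALDOA 1 and 2 and 845 FPKM in PANC-1 NC, against 1720 and 2427 FPKM in 90 siALDOA 1 and 2 and 2042 FPKM in 90 NC. All PANC-1 libraries lay below all 90 libraries, with a log2 difference of -1.43 (SE 0.185, limma adjusted p = 3.67e-03). KRT19 was the most abundant keratin of the 90 line, at 1.75 to 1.98 times the level of KRT18, while in PANC-1 it stood at 0.503 to 0.557 times that level. KRT7, the type II keratin of ductal and other glandular epithelia, differed far more. It had 11.5 and 6.24 FPKM in PANC-1 siALDOA 1 and 2 and 7.46 FPKM in PANC-1 NC, against 905 and 1350 FPKM in 90 siALDOA 1 and 2 and 1209 FPKM in 90 NC. PANC-1 libraries were at 0.540% to 0.994% of the mean of the 90 line, and the log2 difference was -6.96 (SE 0.276, limma adjusted p = 1.82e-04). The PANC-1 values rest on 221 to 474 fragments, so KRT7 RNA was detected there at a low level. The remaining 2 genes of this role, the intestinal keratin KRT20 and KRT23, stayed at or under 0.148 FPKM everywhere.

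The basal layer keratins behaved unlike each other. KRT5, the basal type II chain, had 3.68 and 0.811 FPKM in PANC-1 siALDOA 1 and 2 and 0.463 FPKM in PANC-1 NC, against 618 and 791 FPKM in 90 siALDOA 1 and 2 and 759 FPKM in 90 NC. Its log2 difference of -8.28 (SE 0.445, limma adjusted p = 2.91e-04) was the widest of the 13 keratins. KRT14, its classical type I partner, was scarce in both lines. It had 0.196 and 0.0326 FPKM in PANC-1 siALDOA 1 and 2 and 0.0296 FPKM in PANC-1 NC, which are 7, 1 and 1 fragments. In the 90 line it had 3.42 and 4.72 FPKM in siALDOA 1 and 2 and 2.06 FPKM in NC, which are 109, 147 and 60 fragments. KRT14 was called lower in PANC-1 (-1.98, SE 0.225, limma adjusted p = 2.43e-03), on a scale that understates changes of genes this low. In the 90 line KRT5 thus stood at 618 to 791 FPKM beside a partner gene at 2.06 to 4.72 FPKM, and the abundant type I chains there were KRT19, KRT18 and KRT17. KRT15, a further type I keratin of basal cells, had 7.44 and 6.67 FPKM in PANC-1 siALDOA 1 and 2 and 7.40 FPKM in PANC-1 NC, against 6.22 and 6.62 FPKM in 90 siALDOA 1 and 2 and 6.25 FPKM in 90 NC. Its groups lay side by side without overlap, and the difference of 0.15 (SE 0.152) did not pass (limma adjusted p = 0.512).

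The bases just before the transcription start of KRT5, the keratin with the widest difference, and of KRT10, the one keratin called higher in PANC-1, are shown here to set the promoter ends of these genes side by side. They are the 250 bases upstream of the RefSeq start on GRCh38.p14, both from the minus strand, at chr12:52520395-52520644 for KRT5 and chr17:40822615-40822864 for KRT10. Capitals mark the letters ATAAA where they occur in the last 40 bases, searched on either strand as a TATA-like word.
KRT5: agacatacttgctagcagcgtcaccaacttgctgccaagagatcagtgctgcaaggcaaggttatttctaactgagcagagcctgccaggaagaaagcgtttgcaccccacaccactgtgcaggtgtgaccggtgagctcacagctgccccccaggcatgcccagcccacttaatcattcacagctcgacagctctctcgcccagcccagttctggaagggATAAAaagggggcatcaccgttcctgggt
KRT10: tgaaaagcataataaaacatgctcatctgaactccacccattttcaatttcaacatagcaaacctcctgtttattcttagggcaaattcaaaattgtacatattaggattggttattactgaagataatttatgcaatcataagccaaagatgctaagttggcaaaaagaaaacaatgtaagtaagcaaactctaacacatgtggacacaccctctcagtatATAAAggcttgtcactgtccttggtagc
ATAAA begins 29 bases before the start of KRT5 and 28 bases before that of KRT10, on the gene's strand in both. In the last 40 bases, 8.10% of the 35116 RefSeq promoters of the table hold it on either strand. The AP-1 word TGANTCA, which 6.57% of these promoters hold within 250 bases on either strand, and the GC box GGGCGG, which 42.6% hold, had 0 matches in both sequences. These matches describe letters in a window and say nothing of which factors bind there. A promoter sequence was at hand for 34 of the 55 members.

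Of the 5 stress and wound keratins, KRT6A and KRT17 were abundant in the 90 line, and KRT6B, KRT6C and KRT16 were lower there. KRT6A, a type II chain of wounded and hyperproliferating epithelium, had 3.64 and 1.002 FPKM in PANC-1 siALDOA 1 and 2 and 0.415 FPKM in PANC-1 NC, against 597 and 802 FPKM in 90 siALDOA 1 and 2 and 669 FPKM in 90 NC. Its log2 difference was -8.18 (SE 0.413, limma adjusted p = 2.49e-04). KRT17, a type I chain induced in the same settings, had 1.48 and 0.345 FPKM in PANC-1 siALDOA 1 and 2 and 0.291 FPKM in PANC-1 NC, against 260 and 372 FPKM in 90 siALDOA 1 and 2 and 312 FPKM in 90 NC. Its difference was -7.58 (SE 0.306, limma adjusted p = 1.86e-04). In PANC-1 KRT17 rests on 70, 14 and 13 fragments in siALDOA 1, siALDOA 2 and NC. KRT6B, close in sequence to KRT6A, had 6, 2 and 2 fragments in PANC-1 siALDOA 1, siALDOA 2 and NC, against 23.8 and 37.4 FPKM in 90 siALDOA 1 and 2 and 23.0 FPKM in 90 NC (-4.73, SE 0.234, limma adjusted p = 2.41e-04). KRT6C, the remaining copy, was below the filter and has no test: it had 3, 0 and 0 fragments in PANC-1 siALDOA 1, siALDOA 2 and NC, against 43, 73 and 52 fragments (0.964, 1.68 and 1.28 FPKM) in 90 siALDOA 1, siALDOA 2 and NC. KRT16, the usual type I partner of KRT6A, never reached 1 FPKM. It had 0.0267 and 0.124 FPKM in PANC-1 siALDOA 1 and 2 and 0.0564 FPKM in PANC-1 NC, against 0.657 and 0.795 FPKM in 90 siALDOA 1 and 2 and 0.491 FPKM in 90 NC, the last value being 15 fragments. So in the 90 line KRT6A was abundant while KRT16 was not, as KRT5 was while KRT14 was not. KRT17, also made together with KRT6A, was abundant there.

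KRT6A, KRT6B and KRT6C lie next to each other on chromosome 12 and share most of their coding sequence, which bears on how far their values can be told apart. A stretch of 60 coding bases (positions 663 to 722 from the start codon, GENCODE v29 transcripts, minus strand) is shown because it holds several of the differences by which the copies can be told apart, with capitals at the 9 positions where at least 1 copy differs.
KRT6A: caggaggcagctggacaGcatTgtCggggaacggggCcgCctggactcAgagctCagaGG
KRT6B: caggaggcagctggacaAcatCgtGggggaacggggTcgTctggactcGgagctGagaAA
KRT6C: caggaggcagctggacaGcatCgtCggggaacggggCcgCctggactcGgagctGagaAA
Over the 1695 coding bases, KRT6A and KRT6B are 97.5% identical with 43 differences, KRT6A and KRT6C 97.9% with 35, and KRT6B and KRT6C 98.5% with 26. Of all windows of 50 coding bases, 52.7% of those of KRT6A, 62.5% of KRT6B and 71.6% of KRT6C occur unchanged in transcripts of another gene. The sources used here do not say how fragments that fit several genes were counted, so the split of signal among the 3 copies is uncertain, and that of KRT6B and KRT6C most of all beside the far higher KRT6A. The same limit holds for KRT8 (45.5% of windows shared, mostly with pseudogenes), KRT18 (38.7%), KRT14 (24.7%) and KRT17 (17.1%), and hardly for KRT5 (5.74%), KRT19 (2.08%), KRT7 (1.25%) or KRT10 (0%). The keratin pseudogene rows of the table summed to 6.16 to 6.93 FPKM in PANC-1 libraries and 7.13 to 7.63 FPKM in 90 libraries, led by KRT8P12 at 3.56 to 4.23 FPKM in PANC-1 and 2.79 to 3.16 FPKM in the 90 line.

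Of the suprabasal and mucosal keratins, 3 of 14 passed the filter, and they differed in direction. KRT10, the type I chain of the upper epidermis, was the one keratin called higher in PANC-1. It had 22.7 and 14.6 FPKM in PANC-1 siALDOA 1 and 2 and 30.3 FPKM in PANC-1 NC, against 7.04 and 7.31 FPKM in 90 siALDOA 1 and 2 and 9.24 FPKM in 90 NC. The groups did not overlap, and the log2 difference was 1.36 (SE 0.216, limma adjusted p = 7.08e-03). The call was lost without 90 NC (1.24, adjusted p = 0.0638) and without PANC-1 NC (1.24, adjusted p = 0.0636). KRT1, the type II partner of KRT10 in epidermis, was at 0 in every PANC-1 library and at most at 0.0214 FPKM in the 90 line. KRT80, a type II chain found at desmosomes of many epithelia, had 26.8 and 19.1 FPKM in PANC-1 siALDOA 1 and 2 and 20.4 FPKM in PANC-1 NC, against 30.7 and 37.2 FPKM in 90 siALDOA 1 and 2 and 40.1 FPKM in 90 NC. It was called lower in PANC-1 by a narrow margin (-0.68, SE 0.195, limma adjusted p = 0.0453), and the call was lost under 10 of 19 alternatives, with -0.81 and an adjusted p = 0.111 after median-ratio scaling, and with adjusted p values of 0.246 without 90 NC and 0.0538, 0.129, 0.236 and 0.147 without 90 siALDOA 1, 90 siALDOA 2, PANC-1 NC and PANC-1 siALDOA 2. KRT13, a type I chain of mucosal epithelia such as oesophagus, had 0.133 and 0.0622 FPKM in PANC-1 siALDOA 1 and 2 and 0.0283 FPKM in PANC-1 NC, against 2.45 and 1.65 FPKM in 90 siALDOA 1 and 2 and 2.07 FPKM in 90 NC. It was called lower in PANC-1 (-1.50, SE 0.179, limma adjusted p = 2.82e-03), with 1 to 5 fragments per PANC-1 library.

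Hair and root sheath keratins were low in both lines. Of 17 hair keratins, 2 reached 1 FPKM, and both were below the filter. KRT81 had 1.13 and 0.922 FPKM in PANC-1 siALDOA 1 and 2 and 0.863 FPKM in PANC-1 NC, against 0.698 and 1.02 FPKM in 90 siALDOA 1 and 2 and 1.36 FPKM in 90 NC, with groups that overlapped. KRT86 had 1.27 and 0.867 FPKM in PANC-1 siALDOA 1 and 2 and 1.08 FPKM in PANC-1 NC, against 0.285 and 0.449 FPKM in 90 siALDOA 1 and 2 and 0.265 FPKM in 90 NC, with groups apart. The annotated spans of these genes overlap on chromosome 12: KRT86 runs on the plus strand from 52249300 to 52309163 (GENCODE v29, GRCh38), across the whole of KRT81 on the minus strand and the end of KRT7. At least 56.7% of the 50-base coding windows of each recur in other transcripts, so both values are uncertain. Among the 9 root sheath keratins the highest was KRT75, the companion layer keratin, with 0.689 and 0.628 FPKM in PANC-1 siALDOA 1 and 2 and 0.456 FPKM in PANC-1 NC, against 0.0724 and 0.0742 FPKM in 90 siALDOA 1 and 2 and 0.0530 FPKM in 90 NC. These are 20 to 32 fragments in PANC-1 libraries and 2 or 3 in 90 libraries.

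When the filter was widened to genes with at least 1 FPKM in at least 1 library, 16 keratins were tested, and KRT6C was added to those called lower and KRT86 to those called higher in PANC-1. Of all 14519 genes tested there, 2579 were called lower and 2872 higher. With no filter, 47 keratins were tested, 11 were called lower and 4 higher, beside 2841 lower and 3019 higher of all 27007 genes tested. The added calls are thus not shown to be particular to keratins. KRT6C, KRT16 and KRT78 joined the lower ones while KRT80 left them, and KRT86, KRT75 and KRT32 joined the higher ones. Of the 31 members above 0 but under 1 FPKM in every library, KRT16, KRT75 and the mucosal KRT4 were above 0 in all 6 libraries. KRT9, the keratin of palm and sole skin, was at 0 in the 3 PANC-1 libraries and had 5, 10 and 3 fragments in 90 siALDOA 1, siALDOA 2 and NC. The 8 members at 0 in every library were KRT222, KRT25, KRT26, KRT27, KRT31, KRT33A, KRT33B and KRT35, hair and root sheath keratins but for KRT222.

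Keratin genes sit in 2 clusters, 27 members on chromosome 12 and 28 on chromosome 17. The type II cluster spans 52168996 to 52952901 on chromosome 12, where KRT18 is the single type I member and lies beside KRT8 at one end. The annotated spans of KRT8 (minus strand, 52897187 to 52949954) and KRT18 (plus strand, 52948871 to 52952901) overlap, and the sources used here do not say whether counting used strand. Along chromosome 12 the genes that reached 1 FPKM fell into 3 runs: KRT80, KRT7, KRT86 and KRT81 at one end, KRT6B, KRT6C, KRT6A and KRT5 in the middle, and KRT8 and KRT18 at the other end. With the filter of at least 1 FPKM in at least 1 library all 4 genes of the middle run were called lower in PANC-1, beside 2579 of all 14519 genes. KRT6B, KRT6C and KRT6A share most of their coding sequence, and the split of signal among them is uncertain. Their calls are therefore not 3 separate observations. Between KRT5 and KRT8 lie 12 members that stayed under 1 FPKM in every library. On chromosome 17 all such members but KRT10 lay near one end, with KRT13, KRT15 and KRT19 in consecutive places and KRT14 and KRT17 beyond KRT9. There KRT15, whose difference did not pass, stood between KRT13 and KRT19, both called lower in PANC-1.

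**Figure D3:**
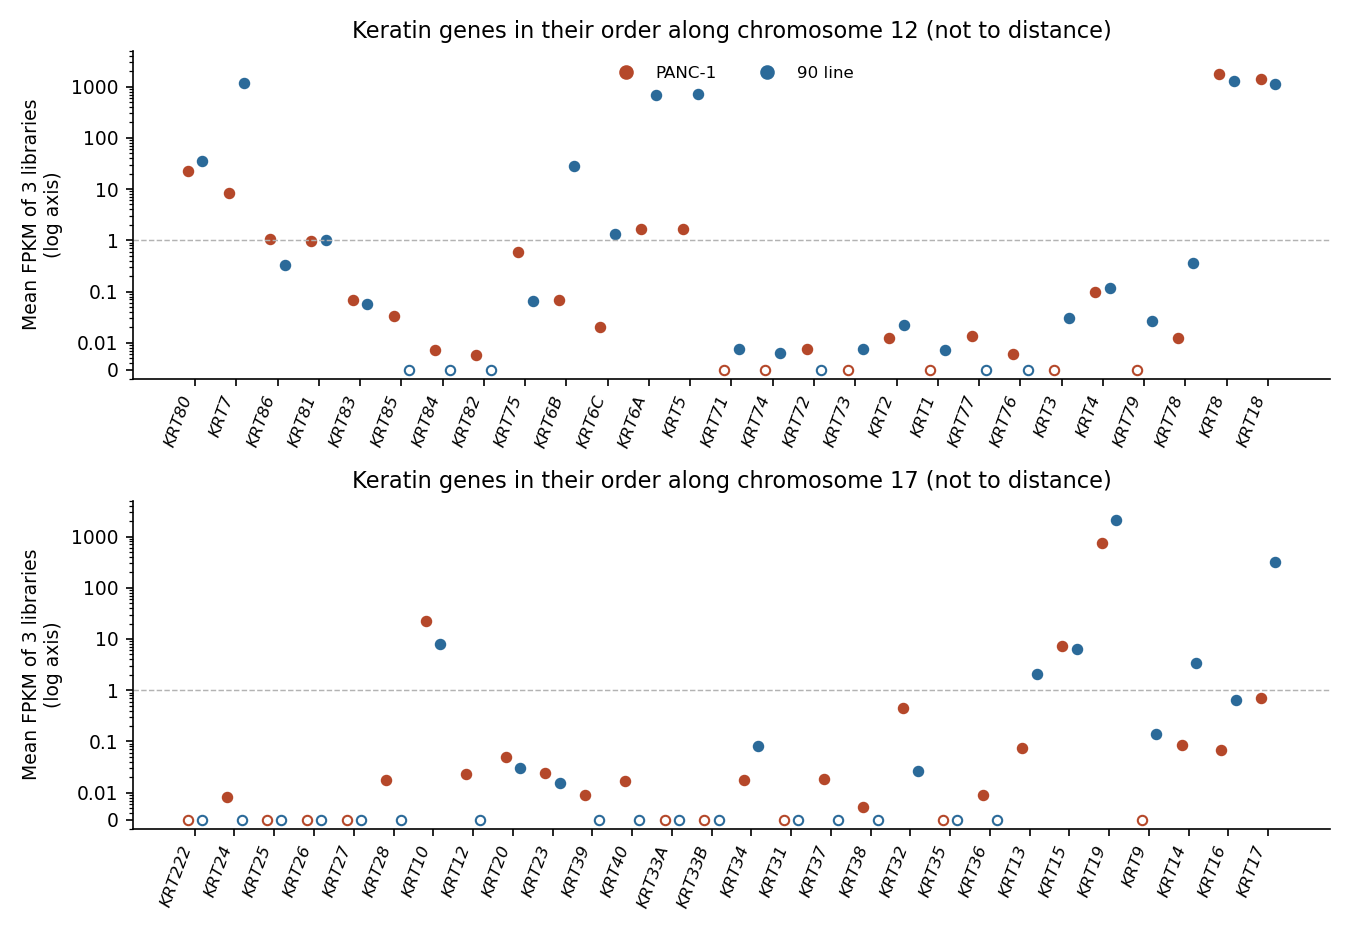
Mean FPKM of the 3 libraries of each line (vertical log axis, 0 as open circles at the bottom) for the 55 keratin genes in their order along chromosome 12 (top) and chromosome 17 (bottom), evenly spaced. In the 90 line KRT6B, KRT6C, KRT6A and KRT5 form a raised run of neighbours that is low in PANC-1, and KRT8 and KRT18 at the end are high in both lines. The split of signal among KRT6B, KRT6C and KRT6A is uncertain, as they share most of their coding sequence.

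The keratins that were low in PANC-1 were not equally low in its 3 libraries. KRT5 stood at 0.509% and 0.112% of the mean of the 90 line in PANC-1 siALDOA 1 and 2 and at 0.0640% in PANC-1 NC. KRT6A stood at 0.528% and 0.145% in siALDOA 1 and 2 and at 0.0602% in NC, and KRT17 at 0.470% and 0.110% in siALDOA 1 and 2 and at 0.0925% in NC. For each of KRT7, KRT5, KRT6A, KRT17, KRT6B, KRT14 and KRT13, siALDOA 1 was the highest of the PANC-1 libraries. KRT6B, KRT14 and KRT13 had only 1 to 7 fragments per PANC-1 library, so their order is uncertain. KRT16, also low in PANC-1, had its lowest value in siALDOA 1, with 1, 4 and 2 fragments in siALDOA 1, siALDOA 2 and NC. The order of KRT5, KRT6A and KRT17 was also seen outside the family. For 30 other genes whose mean in the 90 line reached 100 FPKM and whose PANC-1 median was under 1% of it, the median level was 0.587% of the 90 mean in PANC-1 siALDOA 1, 0.220% in siALDOA 2 and 0.153% in NC. PANC-1 siALDOA 1 also had 23356 genes above 0, against 19544 and 19966 in PANC-1 NC and siALDOA 2. The part of this library-wide pattern in the keratin values was not tested. Without PANC-1 siALDOA 1 the line differences were -8.78 for KRT5, -8.63 for KRT6A, -7.88 for KRT17 and -7.22 for KRT7, and all 4 were called (limma adjusted p = 9.15e-04, 9.15e-04, 9.60e-04 and 9.60e-04).

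**Figure D4:**
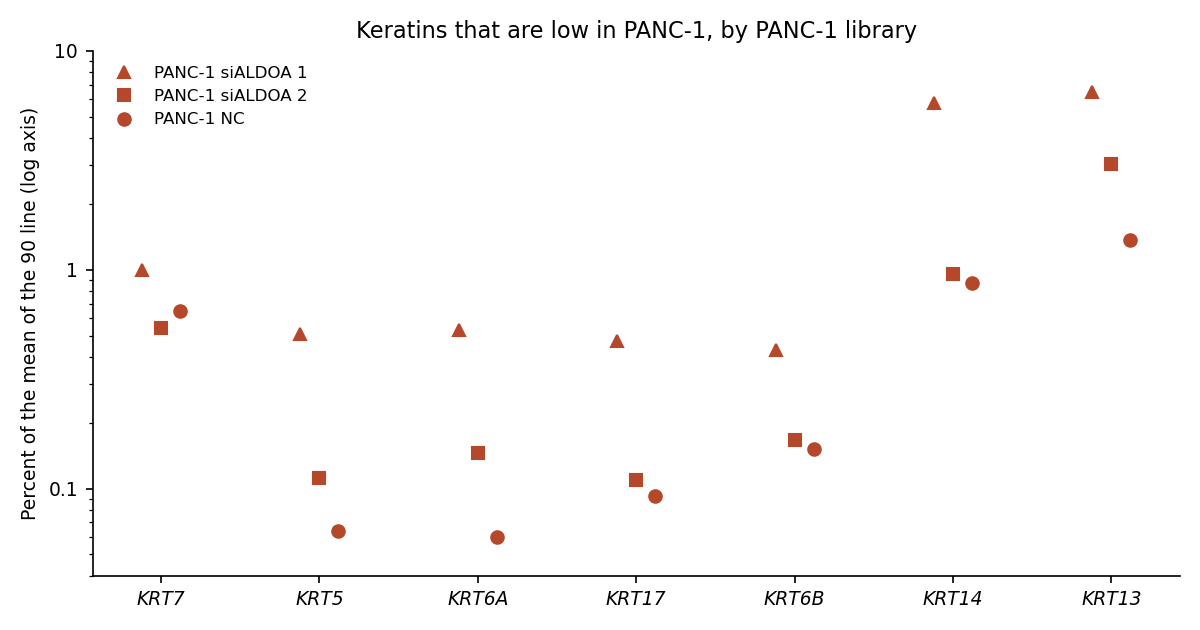
Level of 7 keratins in each PANC-1 library as a percent of their mean in the 90 line (log axis). Triangles, squares and circles are siALDOA 1, siALDOA 2 and NC. The siALDOA 1 library is the highest for each gene, and KRT5, KRT6A and KRT17 lie near 0.5% in it. KRT6B, KRT14 and KRT13 rest on 7 fragments or fewer per library.

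With siALDOA against NC, no keratin was called, over both lines or within either line, and nor was any difference between the effects in the lines. In each of these 4 comparisons limma called 0 of 12592 genes (0%). At an unadjusted p under 0.05 it counted 43 genes for both lines together, 21 in PANC-1, 33 in the 90 line and 24 for the difference between the lines, with 0 keratins among them in each. All of these counts are below a share of 0.05 of the genes, so 0 among 13 keratins carries little information. The targeted ALDOA itself was not called either, with a log2 effect over both lines of -1.12 (SE 0.160, limma unadjusted p = 9.07e-04). Each line has 1 NC library, so a change within a line rests on it, and a p that misses the threshold does not show that a keratin stayed the same. For both lines together, the log2 effects of the 13 keratins lay between -0.51 and 0.58, with standard errors of 0.162 to 0.472.

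The siALDOA libraries of a line often lay on opposite sides of NC. In the 90 line, each of the 7 keratins above 100 FPKM was lower in siALDOA 1 and higher in siALDOA 2 than in NC. Over the 13 tested keratins at 1 FPKM or more in 90 NC, the median level was 83.4% of NC in siALDOA 1, where 3 were above NC, and 112% in siALDOA 2, where 10 were. Over the 10988 tested genes with that level in 90 NC the medians were 94.1% and 99.2% for siALDOA 1 and 2. In PANC-1 the order was the other way round: over the 7 such keratins the median was 104% of NC in siALDOA 1, where 5 were above NC, and 82.8% in siALDOA 2, where 0 were. Over 11452 tested genes the PANC-1 medians were 101% and 102% for siALDOA 1 and 2. Genes outside the family showed this order too. The vimentin gene VIM stood at 81.5% and 110% of NC in 90 siALDOA 1 and 2 and at 103% and 87.5% in PANC-1. The lamin gene LMNA stood at 80.9% and 116% in the 90 line and at 109% and 82.0% in PANC-1. Some went the other way, such as the desmoplakin gene DSP at 350% and 62.4% in the 90 line and 78.5% and 311% in PANC-1.

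KRT10 was the one of the 13 tested keratins with all 4 siALDOA libraries below the NC library of their line. It stood at 74.9% and 48.3% of NC in PANC-1 siALDOA 1 and 2, and at 76.2% and 79.1% of NC in 90 siALDOA 1 and 2. The log2 effect over both lines was -0.51 (SE 0.229) and did not pass (limma adjusted p = 1, unadjusted p = 0.0746). KRT14 and KRT6B had all 4 siALDOA libraries above NC, with effects of 0.41 (SE 0.239) and 0.21 (SE 0.249) that did not pass either (limma adjusted p = 1 for both). KRT14 stood at 166% and 229% of NC in 90 siALDOA 1 and 2. In PANC-1 both genes had 7 fragments or fewer in every library, too few to read a direction. The share of all tested genes with all 4 siALDOA libraries on one side of NC was not counted. These orders are therefore not shown to be particular to keratins.

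**Figure D5:**
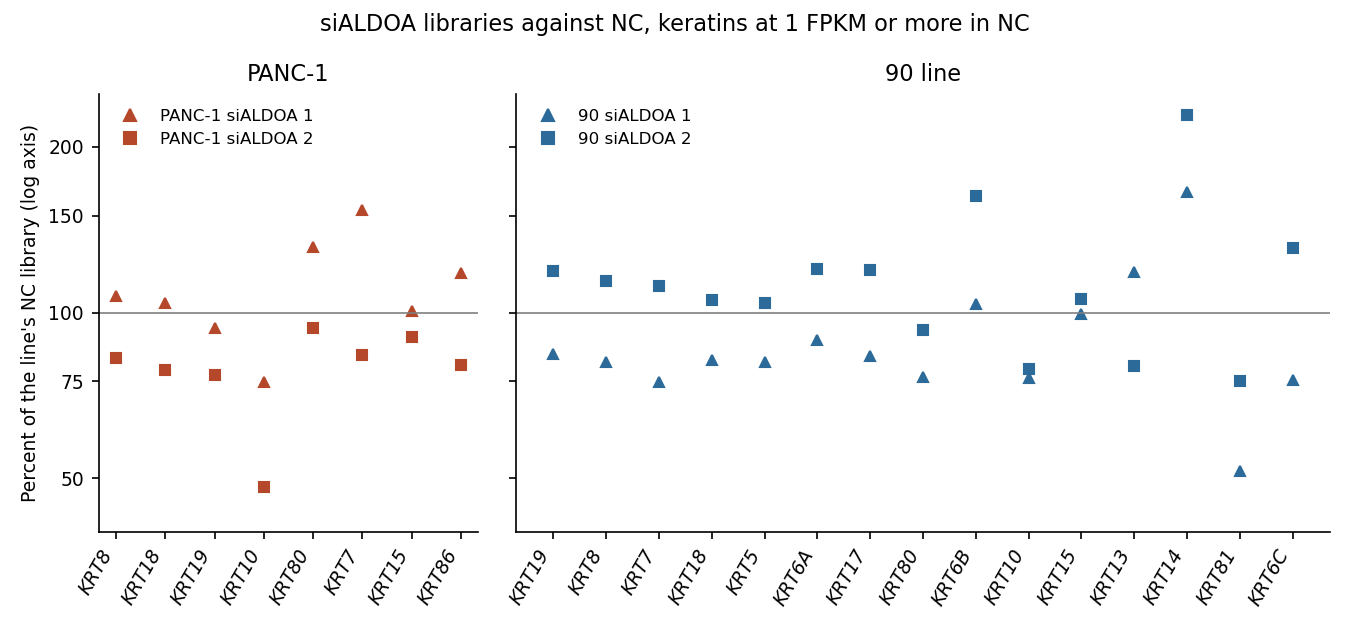
Level of each keratin with at least 1 FPKM in NC, as a percent of the NC library of its line (log axis), in siALDOA 1 (triangles) and siALDOA 2 (squares) of PANC-1 (left) and of the 90 line (right). KRT10 lies below 100% in all 4 libraries, while KRT8, KRT18 and KRT7 lie on opposite sides of 100% in siALDOA 1 and 2 of each line.

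The other intermediate filament genes include those of cytoplasmic filaments, such as vimentin, and of the nuclear lamins. Of 15 such genes, 7 were tested, 0 were called lower in PANC-1, beside 18.4% of all tested genes, and 3 higher, beside 20.4%, with a median log2 difference of 1.10, set against 0.13 for all tested genes here and for the lists that follow. VIM, the vimentin of mesenchymal cells, had 2322 and 1976 FPKM in PANC-1 siALDOA 1 and 2 and 2257 FPKM in PANC-1 NC, against 593 and 802 FPKM in 90 siALDOA 1 and 2 and 728 FPKM in 90 NC (1.63, SE 0.162, limma adjusted p = 1.59e-03). NES, the nestin of progenitor cells, was at 61.0 to 79.6 FPKM in PANC-1 and 5.48 to 6.40 FPKM in the 90 line (3.35), and BFSP1, known as a filament protein of the lens, was called higher as well (1.20). The 3 nuclear lamin genes did not pass, with differences of -0.49 for LMNA, -0.02 for LMNB1 and 0.35 for LMNB2. SYNM, synemin, was at 1.10 (SE 0.356) and did not pass (limma adjusted p = 0.0648). In each PANC-1 library VIM was above every single keratin, and in each 90 library KRT7, KRT8, KRT18 and KRT19 were above VIM.

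Of 13 genes whose proteins link keratin filaments to junctions or modify them, 12 were tested, 8 were called lower in PANC-1 (18.4% of all tested genes were) and 0 higher (20.4%), with a median of -1.68. PKP2 and EPPK1 passed the filter only through the 90 line. PKP2, the desmosomal plakophilin 2, was at 0.382 to 0.770 FPKM in PANC-1 and 10.1 to 28.8 FPKM in the 90 line (-3.58). SFN, 14-3-3 sigma, of a protein family that binds phosphorylated keratins, was at 96.2 to 128 FPKM in PANC-1 and 630 to 971 FPKM in the 90 line (-2.74). FAM83H, which recruits a kinase to keratin filaments, was called lower too (-1.92). DSP, the desmoplakin that ties keratins to desmosomes, had 0.946 and 3.75 FPKM in PANC-1 siALDOA 1 and 2 and 1.21 FPKM in PANC-1 NC, against 28.0 and 4.99 FPKM in 90 siALDOA 1 and 2 and 8.01 FPKM in 90 NC, and did not pass (-2.09, SE 0.691, limma adjusted p = 0.0687).

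Of 14 transcription factors of epithelial and stratified programmes, 11 were tested, 9 were called lower and 1 higher in PANC-1, beside the same 18.4% and 20.4% of all tested genes, with a median of -2.89. KLF5 (-4.37), EHF (-4.06) and GRHL2 (-3.58), a grainyhead factor of epithelial identity, each stayed at or under 0.475 FPKM in PANC-1 and lay between 8.57 and 55.0 FPKM in the 90 line. GRHL3, another grainyhead factor, was the 1 called higher, at 4.97 to 5.31 FPKM in PANC-1 and 1.23 to 1.78 FPKM in the 90 line (1.35). Of 13 genes of the cornified envelope, the protein shell of squamous cells, 4 were tested and 3 were called lower in PANC-1 and 0 higher, again beside 18.4% and 20.4%, with a median of -3.10. CSTA, the protease inhibitor cystatin A, was at 0 to 0.442 FPKM in PANC-1 and 22.3 to 34.4 FPKM in the 90 line (-4.65). SPRR1B, a cross-linked envelope protein, was at 0 to 0.0740 FPKM in PANC-1 and 18.8 to 23.9 FPKM in the 90 line (-4.41), and IVL, involucrin, was at 0 in the 3 PANC-1 libraries and at 1.87 to 3.24 FPKM in the 90 line (-1.79). CNFN, cornifelin, had a difference of -0.26 (SE 0.272) that did not pass (limma adjusted p = 0.520). The factors and envelope genes named as lower passed the filter only through the 90 line. With siALDOA against NC, 0 genes of these 4 lists were called over both lines or within either.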

How the data were processed

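Poly(A)-selected RNA of 6 libraries was sequenced, per the labels' protocols. The authors deposited FPKM values for every gene. The submitters' processing notes name HISAT2, featureCounts and the build hg38. For versions, gene lengths, strand use and the treatment of multiply mapped reads, nothing is given in the sources used here. This table had 41769 rows, of which 1 has no gene name and was left out. Low FPKM values fell on whole multiples of 1 fragment, and gene lengths and library depths (17.8 to 21.8 M) that make the values whole were solved from them. Recovered fragments summed to 99.3% to 99.4% of these depths. Counting error is small for abundant keratins and large under about 0.1 FPKM.

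Line and siALDOA effects came from limma 3.58.1 (R 4.3.3) with an intensity trend on log2(FPKM + 1), for genes whose mean reached 1 FPKM, with Benjamini-Hochberg adjustment over all of them and a threshold of 0.05. The pseudocount of 1 understates changes of low genes. Terms for line and siALDOA leave 3 residual degrees of freedom. Effects within a line and their difference came from a fit of 4 group means, which leaves 2 residual degrees of freedom and assumes that a lone NC library varies as the siALDOA ones do. The fits were also run on simulated data with independent noise per gene and library. Such data lack the differences that libraries share across genes, so that run is no check of the p-values here. Keratins at 1 FPKM or more in any library are named with all values; from each other list up to 4 tested genes with the widest line difference are named, and GRHL3 and TOP2A were added after their values were seen. An item that this rule takes in is not reported here. Members and lists were chosen with earlier results of these data known. Alternatives were other pseudocounts, filters, scalings, a GC correction, a replicate block, leaving out libraries and limma's voom on recovered fragments. Positions are from GENCODE v29 (GRCh38) and promoters from RefSeq (GRCh38.p14).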

Additional observations from a re-analysis of the deposited data

Results flagged for a closer look

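For 2 members without a test, both siALDOA libraries lay on one side of NC in one line and on the other side in the other line, and the difference was not tested under the filter of a mean of 1 FPKM, which both missed. KRT81 had 1.13 and 0.922 FPKM in PANC-1 siALDOA 1 and 2 against 0.863 in PANC-1 NC, and 0.698 and 1.02 FPKM in 90 siALDOA 1 and 2 against 1.36 in 90 NC. Its effect in PANC-1 minus that in the 90 line was 0.47 on the log2(FPKM + 1) scale (SE 0.398, limma adjusted p = 1 with at least 1 FPKM in at least 1 library). These values are 33 to 47 fragments in PANC-1 libraries and 26 to 46 in 90 libraries. KRT4 had 6 and 5 fragments in PANC-1 siALDOA 1 and 2 against 2 in PANC-1 NC, and 3 and 2 fragments in 90 siALDOA 1 and 2 against 9 in 90 NC, with a difference of 0.33 on the same scale (SE 0.0443, limma adjusted p = 0.409 with no filter). For KRT4 the pseudocount of 1 flattens the spread of values this low, so its SE is no measure of the counting error of 2 to 9 fragments. Neither gene passed under these wider filters.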

How the results depend on the processing

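Across 19 alternatives for the line comparison, 0 of the 247 log2 differences of the 13 tested keratins turned their direction, 230 kept their side of the threshold, 12 lost a call (10 of KRT80, 2 of KRT10) and 5 gained one (3 of KRT8, 2 of KRT18). The wider filters, the replicate block alone and the crossed block described below leave these log2 differences unchanged by construction. Their direction was thus fixed in advance, and only their calls could change. Keratins called lower in PANC-1 stayed between 8 and 11. Keratins called higher numbered 2 with at least 1 FPKM in 1 library, 4 with no filter, 3 after quantile normalization, 2 as TPM and 0 to 1 when 1 library was left out; leaving out 90 NC or PANC-1 NC gave the 0. Over all genes, 4882 were called, against 2422 to 4110 when 1 library was left out and 2898 with a replicate block and GC correction together. The count was 5451 of 14519 genes with at least 1 FPKM in 1 library and 5860 of 27007 with no filter. It was 4286 after quantile normalization and 5320 as TPM. With the replicate block alone 3258 were called, 8 keratins lower and 1 higher. The siALDOA 1 minus siALDOA 2 differences of the lines correlated at -0.859 across genes, and a block with crossed numbers, chosen after seeing the data, called 7594 genes with 9 keratins lower and 3 higher. Numbers shared by the libraries are the only link between them, so no pairing is claimed. Summed keratin levels were 7918 in PANC-1 and 14437 in the 90 line as TPM. The median line difference of all genes was 0.13 as deposited and 0.03 after median-ratio scaling. For siALDOA, all counts stayed at 0 but for 17 genes over both lines without both siALDOA 1 libraries (added after seeing the data), and 38 genes in the 90 line and 49 in PANC-1 with no filter, with 0 keratins in each. Leaving out 1 library gave 0 calls in every siALDOA comparison that could be fitted; leaving out an NC library could not be fitted within a line. Fragments limit KRT6B, KRT13 and KRT14 in PANC-1 and all members under about 0.1 FPKM.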
